A study of Rattus norvegicus with 48 samples.

Results

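The livers of 3 male F344 rats fed 500 ppm sodium phenobarbital (PB) in the diet for 3 days were compared with those of 3 rats fed the same CT1 diet with 0 ppm PB for 3 days, which makes 6 of the 48 arrays of the series. F344 is an inbred laboratory strain, and the methods give all animals as 9 weeks old, fed without restriction, with no transgene or other treatment named. RNA came from the left lateral lobe of the liver, 1 Affymetrix RG-230 v2 array for each animal, and the rest of the series came from rats given 0, 50, 500 or 1000 ppm for 1, 3, 7 or 14 days. The comparison asks which transcripts of the liver differ after 3 days at the middle dose. Arrays were placed by animal number, because the deposited labels of 7 arrays name another group than the study design does. Of the 3 treated animals, replicate 3 carries the title of a day 7 animal at the same dose. Of the 113 genes called below, the Cyp2b probeset included, 50 also passed without this animal and 63 did not, and the losses are given beside the genes described with a value. With the arrays placed by their labels 37 probesets passed, of which 36 were among the 169 described below.

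PB is the classic inducer of drug-metabolizing enzymes in liver. It does not bind its main sensor, the nuclear receptor CAR (Nr1i3), directly. It sets off the dephosphorylation of CAR, which then moves into the nucleus and binds, with its partner RXR, to response elements such as the one far upstream of the Cyp2b genes, and the related receptor PXR responds as well. In rodents the enlarged liver that follows combines growth of the smooth endoplasmic reticulum in hepatocytes with a transient wave of cell division.

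Log2 signals of all 48 arrays were fitted in limma with a mean for each of 16 groups, and adjusted p refers to Benjamini-Hochberg adjustment over all probesets tested in a comparison, with a threshold of 0.05. Signals are MAS 5.0 values in arbitrary units, errors of log2 fold changes are standard errors of this fit, and n is 3 animals a group unless a signal is absent. The design has one limit that touches every value below. The sample descriptions open with 1 of 6 numbers, which were read here as dates and taken as 6 runs. This reading is an inference, as the paper names no runs. The day 3 controls were in runs 2 and 3 and the 500 ppm animals in runs 5 and 6. Run and treatment therefore cannot be told apart from these 6 arrays alone. With the run as a fixed block, estimated through the other groups, the variance of the comparison was 3.9 times as large. A second reading used the 4 untreated animals of other days that shared runs 5 and 6. Control arrays listed 15254 to 15627 signals and treated arrays 15628 to 16352. Pairs of arrays correlated at 0.987 within the controls, 0.984 to 0.988 within the treated animals and 0.977 to 0.983 between them, over 10151 probesets.

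At 500 ppm on day 3, 126 of 14560 probesets were higher (0.865%) and 43 were lower (0.295%) than in the controls. The count was 169 in all, with 1859 at an unadjusted p under 0.05. Of the 169, 74 were higher and 16 lower by at least 1.5-fold, and 164 had signals on all 6 arrays with no overlap between the groups. The 169 were chosen by their p on these same arrays, so that lack of overlap was largely fixed by the choice. Over all genes with 6 signals, 10.2% were higher and 10.9% lower without overlap. A total of 148 of the 169 carried 1 gene symbol (135 genes), 10 carried several and 11 none. Leaving out any 1 of the 6 animals lowered the count, to between 65 (without control replicate 3) and 111 (without control replicate 1). Without replicate 3 of the treated animals 77 probesets passed, of which 76 were among the 169. With the run as a fixed block 4 passed, of which 3 were among the 169, and the median ratio of the log2 fold changes of the 169 with and without the block was 0.998. Against the 4 same-run controls 18 passed, 13 higher and 5 lower, and 14 of them were among the 169. The split of higher to lower moved with the scaling of the arrays: 180 of 199 calls were higher after quantile normalization (90.5%) and 156 of 171 after division by the array median (91.2%), against 74.6% as deposited. Read from 1 probeset for each gene, 80 of 8684 genes were higher (0.921%) and 32 were lower (0.368%). The Cyp2b probeset, which stands for 2 genes, comes on top. These shares of all genes are the background for every list count below. A single call in a list is too few to read as a trait of that list.

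The enzymes that oxidize and hydrolyse drugs held some of the steepest rises, as did the conjugation enzymes described further below. The probeset shared by Cyp2b2 and Cyp2b1, the P450 enzymes by which PB induction is usually measured, read 5416, 4444 and 3964 in the controls and 33691, 45622 and 37291 in the treated animals. Every treated animal lay far above every control, and also above the highest of all 12 untreated animals of the series, which reached 8267. The ratio was 8.44 (log2 fold change 3.08 ± 0.14, adjusted p = 5.24e-18), and the call held with the run as a block (2.80, adjusted p = 1.92e-07) and against the same-run controls (3.03, adjusted p = 0.000193).

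The array cannot separate the 2 Cyp2b transcripts, which come from near-identical neighbouring genes. Their upstream sequences are shown because they make this closeness visible. Each window spans 250 bases before to 50 after the transcription start in RefSeq (GRCr8), written in the direction of the gene, with the longest run of bases shared by both genes (97 bases) in capitals.
Cyp2b1 (chr1:90645869-90646168, plus strand): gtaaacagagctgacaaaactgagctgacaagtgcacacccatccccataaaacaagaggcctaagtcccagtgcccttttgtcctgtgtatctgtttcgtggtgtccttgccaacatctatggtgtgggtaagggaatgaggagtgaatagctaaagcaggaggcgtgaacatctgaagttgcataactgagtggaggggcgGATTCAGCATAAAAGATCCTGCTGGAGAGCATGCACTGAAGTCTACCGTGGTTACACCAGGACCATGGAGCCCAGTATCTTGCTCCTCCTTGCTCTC
Cyp2b2 (chr1:90722031-90722330, plus strand): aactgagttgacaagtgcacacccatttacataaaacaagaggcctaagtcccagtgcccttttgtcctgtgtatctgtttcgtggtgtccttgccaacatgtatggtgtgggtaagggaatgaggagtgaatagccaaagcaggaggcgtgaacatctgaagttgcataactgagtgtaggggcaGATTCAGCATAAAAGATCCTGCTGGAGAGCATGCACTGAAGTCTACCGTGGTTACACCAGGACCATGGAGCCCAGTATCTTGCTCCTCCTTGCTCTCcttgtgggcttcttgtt
With one window shifted by 17 bases against the other, 275 of 283 aligned bases were the same (97.2%). The PB response element itself lies outside both windows.

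Ces2c, a carboxylesterase that cleaves ester drugs, was listed at 691, 653 and 606 in the controls and 3677, 4502 and 4084 at 500 ppm. No control of any day exceeded 701. The ratio of 6.28 (log2 fold change 2.65 ± 0.21, adjusted p = 3.04e-11) passed with the run as a block (adjusted p = 0.00226) and against the same-run controls (2.97, adjusted p = 0.000193). Aldh1a1, which oxidizes retinal to retinoic acid, read 2069, 1791 and 1543 against 13679.7, 11368 and 7457. The treated animals were spread over a wider range than the controls, with replicate 3 the lowest of them, and still did not overlap. Its log2 fold change was 2.55 ± 0.34 (adjusted p = 1.29e-05) and 2.80 without replicate 3. The same-run controls gave 3.88 (adjusted p = 0.00961), while with the run as a block the value was 3.17 and no longer passed (adjusted p = 0.105).

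Ephx1, the microsomal epoxide hydrolase, rose from 13192, 12476 and 12624 to 26854, 33166 and 30995. This is a moderate ratio (2.37) on an already abundant transcript, with a log2 fold change of 1.24 ± 0.11 (adjusted p = 4.93e-10). The 12 untreated animals of the series spanned 8202 to 13192, and the value against the same-run controls was larger (1.71). Nqo1, a quinone reductase, rose by 0.92 ± 0.19 (adjusted p = 0.00694), a call lost without replicate 3 (0.85, adjusted p = 0.0609). Por, the reductase that passes electrons to all microsomal P450 enzymes and is named here after its value was seen, read 1518, 1477 and 1572 against 2426, 2550.2 and 2848, a ratio of 1.71 (log2 fold change 0.77 ± 0.17, adjusted p = 0.0112). Its call was lost without replicate 3 (0.71, adjusted p = 0.0819).

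Of the 37 tested members of the list of P450 partners and other phase I enzymes, these 5 were higher, against 0.921% of all genes, and 3 without replicate 3. Fmo1, a flavin-containing monooxygenase, was the 1 that was lower. It read 3822, 4184 and 4670.2 in the controls and 1384, 1491 and 1655 in the treated animals, the steepest fall among the genes past the threshold (ratio 0.358, log2 fold change -1.48 ± 0.23, adjusted p = 0.00022). The fall also passed against the same-run controls (-1.59, adjusted p = 0.0246).

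Beyond the Cyp2b probeset, P450 genes passed in both directions and with smaller values. Of 33 tested, 3 were higher and 2 lower, against 0.921% and 0.368% of all genes, and the list median was -0.13. Without replicate 3 the counts were 3 and 1. Cyp3a23-3a1, a 3A enzyme of broad drug specificity, read 22983, 27233 and 23672 against 36162, 46529 and 39821 (log2 fold change 0.73 ± 0.12, adjusted p = 0.000257). Cyp3a9, of the same subfamily, rose by 0.87 ± 0.22 (adjusted p = 0.0404), but untreated animals of the series ran from 3941 to 11016 and the value against the same-run controls was only 0.09. Cyp2t1 fell by 0.66 ± 0.12. Cyp1a2, the enzyme that clears caffeine, went from 14517, 16362 and 17583 to 13484, 10972 and 11694, a small fall (-0.42 ± 0.10, adjusted p = 0.0174) with no overlap between the groups.

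**Figure D1:**
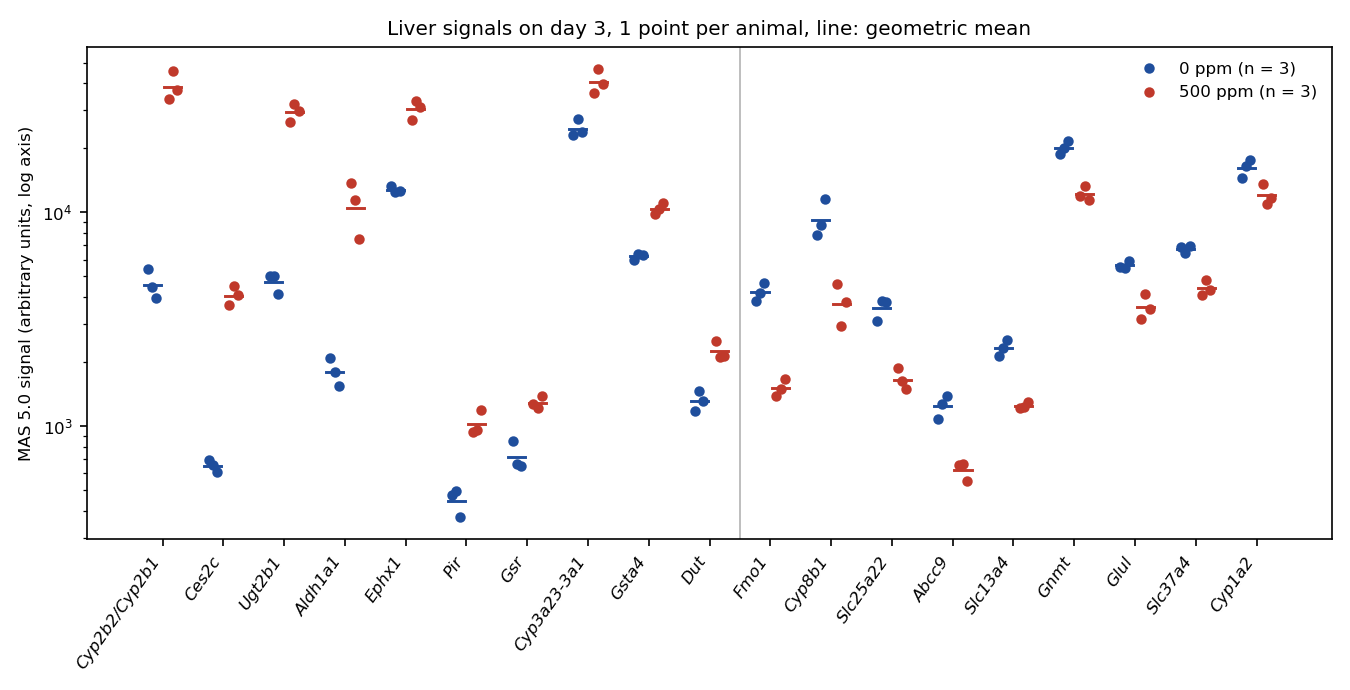
MAS 5.0 signal (log axis) of 19 probesets in the 3 control livers (blue) and the 3 livers at 500 ppm (red) on day 3, with 1 point per animal and the geometric mean as a line. The 10 genes on the left were higher and the 9 on the right lower, and in none of them did the groups overlap.

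Among conjugation enzymes 6 of 39 tested were higher and 1 was lower, against 0.921% and 0.368% of all genes. Their median log2 fold change was 0.12. Without replicate 3 the counts were 4 and 0. Ugt2b1, a UDP-glucuronosyltransferase, read 5009.9, 5014 and 4157 in the controls and 26428, 31928 and 29839 at 500 ppm. No untreated animal of any day exceeded 6592. Its ratio was 6.22 (log2 fold change 2.64 ± 0.15, adjusted p = 6.43e-15), and it passed with the run as a block as well (adjusted p = 0.000144). Ugt2b10, a relative, rose by a smaller 0.58 ± 0.10 (adjusted p = 0.00047).

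Of 15 tested glutathione S-transferases, which attach glutathione to reactive compounds, 4 rose and 0 fell, against 0.921% and 0.368% of all genes. Gsta4 was listed at 5990.0, 6398 and 6295 against 9758, 10383 and 11064 in the 2 groups (log2 fold change 0.74 ± 0.10, adjusted p = 9.71e-06). The abundant Gstm1 rose by 0.53 ± 0.11, a call lost without replicate 3 (adjusted p = 0.0643). Gsta3 was faint in untreated liver, where 2 of 3 controls listed it, at 109 and 104, against 1000.4, 469 and 608 in treated animals (2.63 ± 0.47, adjusted p = 0.00282). Gstm3 had no listed control. None of the 12 untreated animals of the series had a listed Gstm3 signal, while the 3 treated animals read 1306, 2140 and 2283, so that no ratio can be given. Close paralogs of these families may share probes.

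Papss2, named after its value was seen, was the conjugation enzyme that fell (-0.46 ± 0.12, adjusted p = 0.0461), and it did not pass without replicate 3 (adjusted p = 0.0651). It makes the activated sulfate that sulfotransferases use. Slc13a4, a sulfate transporter, fell from 2122, 2312 and 2529 to 1217, 1228 and 1292 (-0.89 ± 0.16, adjusted p = 0.00102), with the 3 treated animals within a narrow band well under the controls.

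Of 18 drug transporters 1 was higher, Abcc2, the pump that exports conjugates into bile (0.43 ± 0.10, adjusted p = 0.0133), and it did not pass without replicate 3 (adjusted p = 0.129). Over all genes 0.921% were higher and 0.368% lower. Slco1a4, an uptake transporter, did not pass from its brightest probeset (0.17, adjusted p = 0.648), while a second one was higher (0.59, adjusted p = 0.0243). Abcb1a, a drug efflux pump, read 182, 364 and 212 against 869, 439.8 and 357 and missed the threshold (adjusted p = 0.113). None of 29 receptors and their partners passed, which is near the share over all genes. Nr1i3, which encodes CAR, read 1082, 1005 and 1124 in the controls and 685, 694 and 523 at 500 ppm. Its groups did not overlap, with a log2 fold change of -0.77 ± 0.21 and an adjusted p of 0.0564.

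Redox genes followed. Of 35 tested members of the glutathione and thioredoxin list 3 were higher and 1 was lower (2 and 0 without replicate 3). The shares over all genes were 0.921% and 0.368%. Gsr, which regenerates reduced glutathione, read 852, 661 and 649 against 1268, 1214 and 1381 (log2 fold change 0.85 ± 0.14, adjusted p = 0.000257). Srxn1, the sulfiredoxin that repairs overoxidized peroxiredoxins, was listed on 2 controls at 272 and 281 and on the treated arrays at 533, 549 and 734 (1.11 ± 0.20, adjusted p = 0.003). Sod2, the mitochondrial superoxide dismutase, rose by 0.46 ± 0.12 (adjusted p = 0.0374), and not past the threshold without replicate 3 (adjusted p = 0.135). Gclc, the catalytic subunit of the enzyme that limits glutathione synthesis, was read at 0.52 ± 0.14 with an adjusted p of 0.053 from its brightest probeset, and a second probeset of the gene passed at 0.77 (adjusted p = 0.00341). The lower member was Glul, glutamine synthetase, described with the perivenous genes.

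Pir, an iron-binding nuclear protein, belonged to none of the drug lists and read 474, 495 and 375 against 941, 954 and 1188. Replicate 3 was the highest of the treated animals, and the log2 fold change was 1.20 ± 0.15 (adjusted p = 2.61e-06), 1.09 without that animal and 1.21 against the same-run controls (adjusted p = 0.0246). The upstream windows of Srxn1, Pir and Ephx1 are printed because they hold the letters TGANTCAGC, the core of the element bound by the oxidant-responsive factor Nrf2 with small Maf proteins. Both strands were searched, and the match is in capitals, as read on the printed strand.
Srxn1 (chr3:161064562-161064861, plus strand): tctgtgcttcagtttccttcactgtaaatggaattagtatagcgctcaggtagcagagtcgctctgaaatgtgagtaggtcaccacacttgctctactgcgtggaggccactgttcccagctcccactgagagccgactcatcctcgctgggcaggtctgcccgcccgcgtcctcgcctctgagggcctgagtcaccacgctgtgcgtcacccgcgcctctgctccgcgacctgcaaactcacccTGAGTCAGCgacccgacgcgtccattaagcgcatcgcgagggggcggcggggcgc
Pir (chrX:33851000-33851299, minus strand): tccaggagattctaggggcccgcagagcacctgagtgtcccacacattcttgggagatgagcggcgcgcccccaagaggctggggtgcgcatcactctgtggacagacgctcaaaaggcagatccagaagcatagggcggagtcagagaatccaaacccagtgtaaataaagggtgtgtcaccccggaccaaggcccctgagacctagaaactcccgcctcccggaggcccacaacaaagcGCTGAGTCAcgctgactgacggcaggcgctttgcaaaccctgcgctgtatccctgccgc
Ephx1, one of 2 windows of the gene (chr13:95263068-95263367, minus strand): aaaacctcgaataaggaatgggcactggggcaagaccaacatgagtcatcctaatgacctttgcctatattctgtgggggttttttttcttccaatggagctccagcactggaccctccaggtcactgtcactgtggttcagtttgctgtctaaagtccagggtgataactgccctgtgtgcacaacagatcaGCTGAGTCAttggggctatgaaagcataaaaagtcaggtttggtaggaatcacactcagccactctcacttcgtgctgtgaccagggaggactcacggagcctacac
Across all 33469 promoter windows of the same length in the RefSeq table (GRCr8), 371 held this motif (1.11%). Counted by gene, where any window of a gene suffices, 4 of the 66 higher genes that had a window and 0 of the 32 lower genes held it. A share of windows and a share of genes are unlike units, and a gene with several windows has more chances of a match. The fourth was Lsr. A total of 10 motifs were searched, and these letters were chosen after their matches were seen. The letters AGTTCA, a motif of CAR and PXR, were searched too and were found in 14.5% of all windows and in 14 of the 66, Ces2c, Ugt2b1, Cyp3a23-3a1, Cyp3a9, Gsta3 and Gsta4 among them. The same CAR and PXR letters were held by 2 of the 32 lower genes. With the first T replaced by G, they were in 16.2% of all windows, 12 of the 66 and 8 of the 32. Their repeat with a gap of 4 bases was in 0.012% of all windows, 0 of the 66 and 0 of the 32. A looser core of the Nrf2 element was in 12.1% of all windows, 13 of the 66 and 4 of the 32. A match describes letters in a window and no binding was measured.

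Genes of DNA synthesis and cell division had positive medians. Of 32 tested replication genes 4 rose and none fell, against 0.921% and 0.368% of all genes. Their median log2 fold change was 0.27, against -0.01 over all genes. Dut, which keeps uracil out of DNA, read 1174, 1453 and 1306 against 2483, 2106 and 2128 (0.77 ± 0.15, adjusted p = 0.00352). Mcm7, a subunit of the replicative helicase, read 637, 527 and 523 against 856, 816 and 845 (0.58 ± 0.13, adjusted p = 0.0154). Pcna, the sliding clamp, and Rpa3, a subunit of the protein that coats single-stranded DNA, rose by 0.44 ± 0.11 and 0.43 ± 0.10 (adjusted p = 0.0308 and 0.0241). Dut alone of the 4 passed without replicate 3 (adjusted p = 0.0123, against 0.0664 to 0.0874 for the others).

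Cyclins and mitotic genes had larger values with a wider scatter. Of 48 tested, 1 passed (Stmn1, which destabilizes microtubules), yet 46 had a positive value, the median was 0.58, and 21 had every treated animal above every control, against 10.2% of all genes with 6 signals. Stmn1 read 1128, 1155 and 795 against 1838, 2267 and 2255 (1.06 ± 0.28, adjusted p = 0.0479), and untreated animals of other days reached up to 1993. Without replicate 3 it did not pass (adjusted p = 0.156), which left the list with 0 calls. Ccna2, cyclin A2, read 247, 338 and 112 against 813, 523 and 555. The controls differed by up to the size of the change, and the log2 fold change of 1.55 ± 0.48 did not pass (adjusted p = 0.11). Spc25, of the kinetochore, gave 1.26 ± 0.38 (adjusted p = 0.11). The next genes belong to neither list and were placed here after their calls were seen. Pclaf, which binds PCNA, read 325, 549 and 203 against 863, 835 and 749.9 and passed (1.30 ± 0.34, adjusted p = 0.0438). So did Mnd1, a factor of meiotic recombination (1.11 ± 0.24, adjusted p = 0.0124), and Tubb5, a tubulin (0.73 ± 0.15, adjusted p = 0.00694). Without replicate 3 Mnd1 passed and Pclaf and Tubb5 did not (adjusted p = 0.00309, 0.104 and 0.0713). In these bulk samples more dividing cells and more RNA per cell cannot be told apart, here as for every other gene.

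Many division genes had no listed signal in untreated liver, and such genes could not be tested. Of 68 such genes on the array, 43, 52 and 40 were listed on the control arrays and 61, 57 and 57 on the treated arrays of day 3. For 51 replication genes the numbers were 28, 33 and 32 against 41, 35 and 41. At 500 ppm on day 7 only 28 of the 68 were listed on each of the 3 arrays, under the 38 to 50 of the controls of that day, and on day 14 the treated arrays listed 23, 27 and 29 against 28, 52 and 33 in the controls, which overlap. All listed signals moved the same way on days 3 and 7: they were more on the treated arrays of day 3, and on day 7 they numbered 14712, 13763 and 13479 on the treated arrays against 16068, 14767 and 15914 on the controls. The part of this in the counts was not tested. Against the same-run controls the medians of the tested members were 0.88 for cyclins and mitosis and 0.44 for replication.

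**Figure D2:**
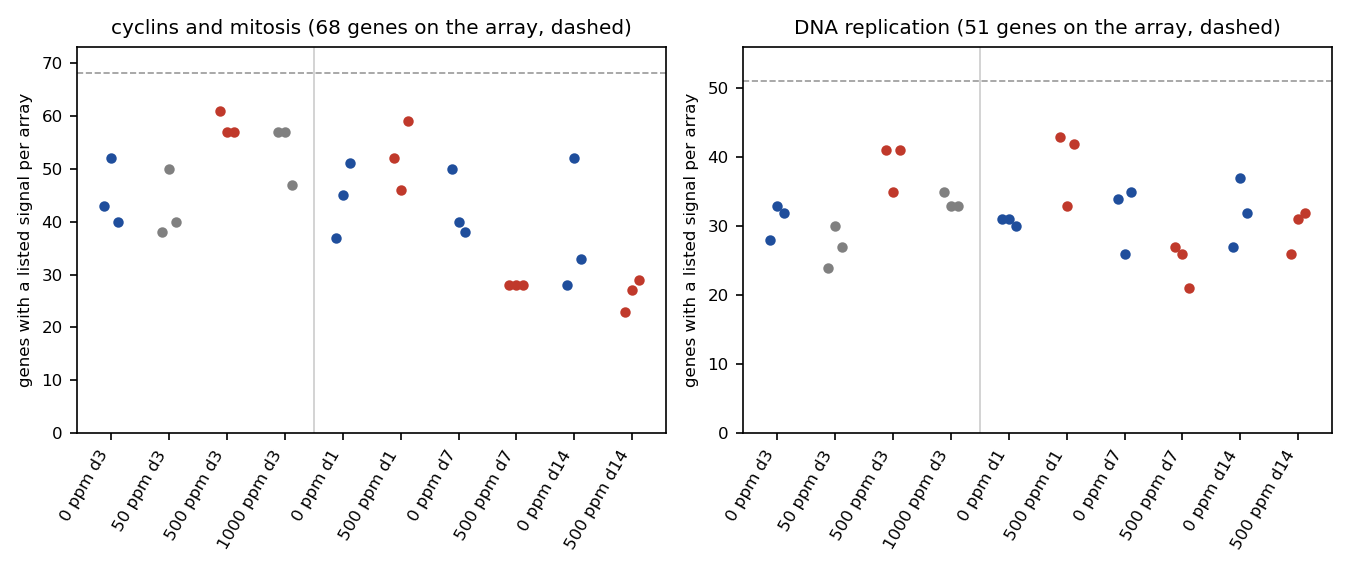
Number of genes with a listed signal on each array (1 point per animal) for 68 genes of cyclins and mitosis and 51 genes of DNA replication, at 4 doses on day 3 and at 0 and 500 ppm on the other days, where blue marks controls, red 500 ppm and grey the other doses. On day 3 the 500 ppm arrays listed 57 to 61 division genes against 40 to 52 in the controls, and on day 7 they listed 28.

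The proteasome, the complex that degrades ubiquitin-tagged proteins, held small positive values in most of its genes. All 45 were listed on the 6 arrays. Of these 4 rose and none fell, against 0.921% and 0.368% of all genes. A total of 40 values were positive and the median was 0.19. In 30 genes every treated animal exceeded every control, against 10.2% of all genes. Psmd5, an assembly factor of the regulatory particle, read 1658, 1582 and 1656 against 2267, 2077 and 2417 (0.46 ± 0.10, adjusted p = 0.0151), and Psmd8, Psmd12 and Psmd14, subunits of its lid, rose by 0.41 ± 0.10, 0.43 ± 0.11 and 0.41 ± 0.11. None of the 4 passed without replicate 3 (adjusted p = 0.11 to 0.254). The median of the list was 0.16 against the same-run controls and 0.25 after quantile normalization.

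Several rises came from genes of other functions. Sgpl1, the lyase that breaks down sphingosine 1-phosphate, read 925, 758 and 710.2 against 1935, 1941 and 1570.3 (1.19 ± 0.20, adjusted p = 0.000475). Zdhhc2, a palmitoyltransferase, read 330.5, 401 and 333 against 702, 761 and 759 and passed against the same-run controls as well (adjusted p = 0.00961). Casp4 and Casp12, caspases of the inflammatory group, rose by 1.03 ± 0.16 and 0.79 ± 0.15 (adjusted p = 0.000175 and 0.00173). The chemokine Cxcl9 rose by 1.10 ± 0.25, with 1 treated animal (replicate 1) well above the other two at 2495, 1643 and 1567. Meox2, a homeobox factor, and Epb41l5, a cytoskeletal linker, rose by 1.04 ± 0.22 and 0.94 ± 0.15. Of 30 tested p53 targets and cell death genes Casp12 was the 1 that passed, where 0.921% of all genes were higher.

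Some probesets were listed on all arrays of one group and on none of the other, where no comparison can be fitted. There were 117 with signals in the 3 treated animals alone and 33 in the 3 controls alone, on arrays that listed more signals in the treated group. The brightest of the 117 were Gstm3, RT1-CE12 (a class I histocompatibility gene), a probeset without a symbol, Cdc20 (an activator of the anaphase-promoting complex) and Tk1 (thymidine kinase). Cdc20 read 490.1, 744 and 946, and Tk1 read 601, 676 and 613. For Tk1 a second probeset was listed in both groups and was higher (0.75, adjusted p = 0.0261), though not without replicate 3 (adjusted p = 0.0597). A single untreated animal of the other days had a listed Cdc20 signal and 2 had a signal of the first Tk1 probeset. Gadd45b, a stress-response gene that CAR is known to induce in mouse liver and that is named here after its listing was seen, read 487, 579 and 375 in the treated animals. It was absent from all 12 untreated animals and from the 3 animals at 50 ppm on day 3, and present in the 3 at 1000 ppm on day 3 at 546, 631 and 805. The brightest 5 probesets of the controls alone were Zfp592, Whamm, C1qtnf1, Spring1 and one without a symbol.

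The falls were fewer than the rises. Cyp8b1, the sterol 12-alpha-hydroxylase that directs bile acid synthesis toward cholic acid, read 7798, 8697 and 11526 against 4622, 2919 and 3788. Both groups were loose, without overlap, and the log2 fold change was -1.31 ± 0.28 (adjusted p = 0.00866). It was the 1 of 17 bile acid genes that passed, where 0.368% of all genes were lower. Cyp7a1, the rate-limiting enzyme of the pathway, read 5106, 8635 and 8299 against 2306, 1560.3 and 4611 and did not pass (-1.49 ± 0.55, adjusted p = 0.204). Slc25a22, a mitochondrial glutamate carrier, read 3112, 3853 and 3809 against 1861, 1618 and 1481 (-1.12 ± 0.21, adjusted p = 0.00285).

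Of 63 genes of amino acid breakdown and the urea cycle 2 fell and none rose, against 0.368% and 0.921% of all genes. The list had 48 negative values and a median of -0.11 (-0.05 after quantile normalization). Of the pair, 1 passed without replicate 3. Gnmt, the abundant enzyme that disposes of surplus methyl groups, read 18625, 19919.9 and 21459.5 against 11933, 13255 and 11395 (-0.71 ± 0.13, adjusted p = 0.00168). Glul read 5523, 5485 and 5899.7 against 3162, 4163 and 3509 (-0.65 ± 0.15, adjusted p = 0.0241). A second, less bright Glul probeset read 4668, 5330.3 and 6356 against 2393, 2754 and 2431 (-1.10 ± 0.16, adjusted p = 6.92e-05), and the other probeset of the gene gave -0.67 (adjusted p = 0.0514). Glul sits in the last ring of hepatocytes around the central vein, and of the 14 tested perivenous genes it and Cyp1a2 fell while Aldh1a1 rose. Without replicate 3 neither fall passed from the brightest probeset (adjusted p = 0.0968 and 0.0901), but the second Glul probeset did (-1.07, adjusted p = 0.00119). Chdh and Phyh, which oxidize choline and phytanic acid, fell by 0.52 and 0.53, and neither passed without replicate 3 (adjusted p = 0.278 and 0.115).

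Slc37a4, which carries glucose 6-phosphate into the endoplasmic reticulum, was the 1 of 32 glycogen and glucose genes that fell, from 6863, 6434 and 6978 to 4118, 4816 and 4341 (-0.61 ± 0.11, adjusted p = 0.00112). Over all genes 0.368% were lower. Igfbp1, a binding protein of the insulin-like growth factors, read 6228, 9387 and 7239 against 3306, 2620.3 and 862. Replicate 3 was far lower than the other treated animals, and the value of -1.94 ± 0.59 did not pass (adjusted p = 0.0965). Abcc9, the regulatory subunit of a potassium channel, fell by 0.98 ± 0.16, Eif4ebp3, a repressor of translation initiation, by 0.95 ± 0.23, and Zfp266 and Ergic1 by 0.58 and 0.57. Of these 4, Abcc9 alone passed without replicate 3 (adjusted p = 0.00667, against 0.0507 to 0.211 for the others). Pon3, a paraoxonase of plasma lipoproteins, was the 1 of 66 plasma protein genes that fell (-0.43 ± 0.11, adjusted p = 0.0308), and it did not pass without replicate 3 (adjusted p = 0.085). Hspa4, a chaperone of the Hsp110 family, read 905, 797 and 856 against 558, 433 and 424 (-0.87 ± 0.16, adjusted p = 0.00153), but the value against the same-run controls was -0.33 (adjusted p = 0.639).

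Large parts of liver metabolism yielded no call on day 3. Over all genes 0.921% were higher and 0.368% lower, so 0 calls in lists of 16 to 68 genes is near the general share. Heme synthesis (22 tested genes), NADPH supply (16), cholesterol synthesis (23), fatty acid and triglyceride synthesis (37), fatty acid oxidation (38), the respiratory chain with the citric acid cycle (68), chaperones of the endoplasmic reticulum (63), ribosome biogenesis (48) and the circadian clock (18) each had 0 genes past the threshold. Alas1, the first enzyme of heme synthesis, read 7276, 5784 and 4656 against 10993, 10396 and 8512. Its groups did not overlap, and the wide spread left it short of the threshold (0.77 ± 0.31, adjusted p = 0.258). Tkt of the pentose phosphate pathway (0.37 ± 0.10, adjusted p = 0.0536) and Me1, malic enzyme (0.66 ± 0.23, adjusted p = 0.181), also missed it. Of 14 tested genes that the study itself tabulated from these arrays, and which are therefore no independent evidence, 7 were higher and 1 lower (7 and 0 without replicate 3).

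**Figure D3:**
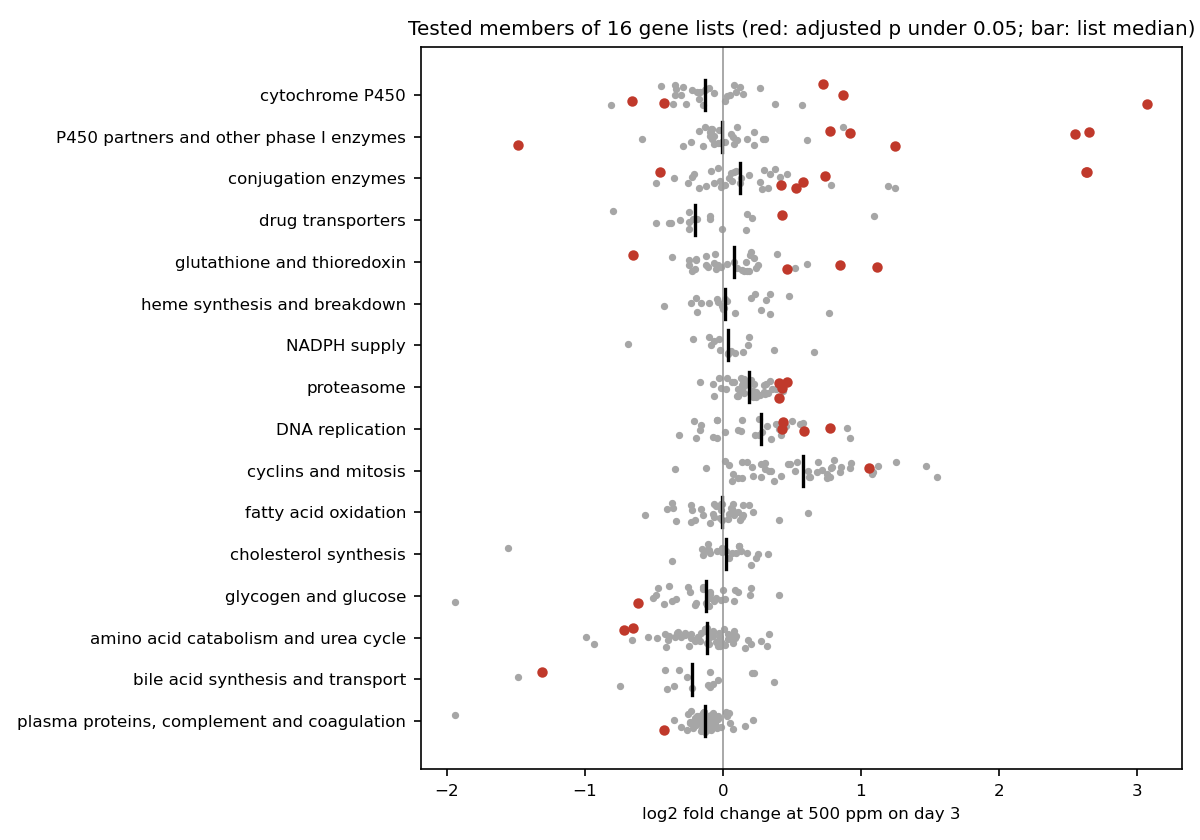
Log2 fold change at 500 ppm on day 3 of each tested member of 16 gene lists (points, spread vertically for visibility), with members past an adjusted p of 0.05 in red and the list median as a black bar. The medians of cyclins and mitosis (0.58), DNA replication (0.27) and the proteasome (0.19) lie to the right of 0. The lists of P450, other phase I and conjugation enzymes hold a few members far to the right of their medians (-0.13, -0.01 and 0.12).

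The marker genes of liver cell types gave no call. At the share over all genes (0.921% higher, 0.368% lower) sets this small would rarely hold one. None of 9 tested hepatocyte, 11 Kupffer cell, 8 stellate cell, 7 endothelial, 2 bile duct, 2 lymphocyte, 1 neutrophil, 3 erythroid and 1 pancreas and fat markers passed. The summed hepatocyte signal ran from 331972 to 354949 in the controls and from 282690 to 360991 in the treated animals, and the summed erythroid signal from 28012 to 32859 and from 18802 to 29295. Several defining markers, such as Vwf, Clec4g and Marco, had no probeset that passed the filter, and the T cell marker Cd3e and Flt1 had no listed signal on any of the 6 arrays.

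**Figure D4:**
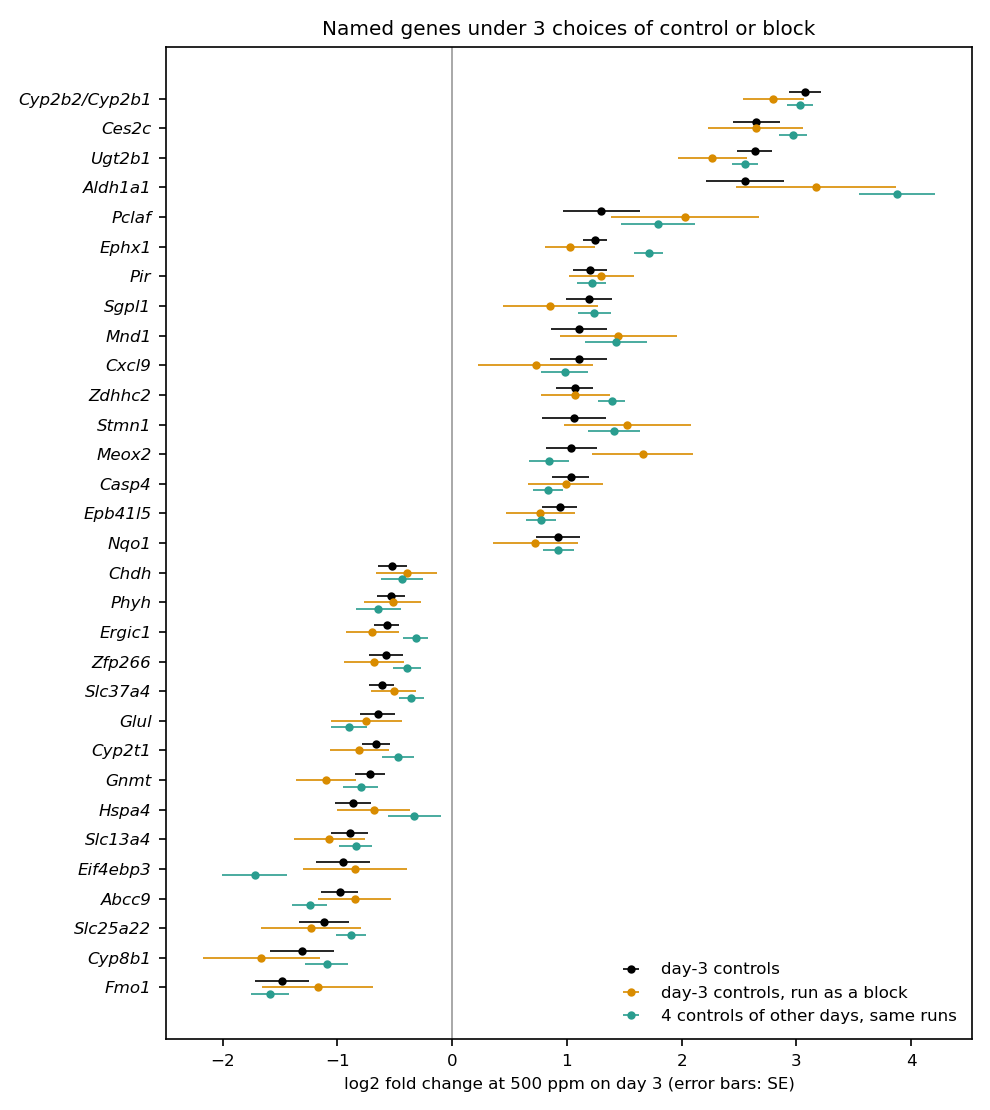
Log2 fold change at 500 ppm on day 3 (points, with standard errors) of the Cyp2b probeset and of the 15 genes with the largest rise and the 15 with the largest fall, read against the day 3 controls (black), with the array run as a block (orange) and against 4 untreated animals of other days that shared the runs (green). The value of Aldh1a1 runs from 2.55 to 3.88 over the 3 readings and that of Hspa4 from -0.87 to -0.33.

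Next, the doses of day 3 were set side by side. Against 0 ppm, 9 of 13667 probesets were higher and 5 lower at 50 ppm, and 307 of 14023 were higher and 256 lower at 1000 ppm. The total was 563 at 1000 ppm beside 169 at 500 ppm. These comparisons share the same 3 controls, and a difference between such counts is no test. The doses were therefore compared by their direct differences. From 50 to 500 ppm, 58 of 13797 probesets were higher (0.42%) and 52 lower (0.377%). This balance depended on the scaling of the arrays. After quantile normalization 873 were higher and 19 lower and after division by the array median 2008 and 55, while the median over all probesets moved from -0.02 to 0.18 and 0.20. Leaving out any 1 animal of the 2 groups gave 28 to 71 calls, the fewest without replicate 3 at 50 ppm. The Cyp2b probeset was already at 2.76 above the controls at 50 ppm, on the log2 scale, and its difference from 500 ppm was 0.32 ± 0.14 (adjusted p = 0.289), but 0.44 and past the threshold after quantile normalization (adjusted p = 0.0224). Ces2c stood at 0.83, 2.65 and 3.54 at 50, 500 and 1000 ppm, and the step from 50 to 500 ppm was 1.82 ± 0.21 (adjusted p = 2.45e-06). Ephx1 and Pir, at 0.42 and 0.19 at 50 ppm, were higher at 500 ppm by 0.82 ± 0.11 and 1.01 ± 0.15 (adjusted p = 3.56e-05 and 0.000187).

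Aldh1a1 and Zdhhc2 were also higher at 500 than at 50 ppm, by 1.96 ± 0.34 and 1.02 ± 0.16 (adjusted p = 0.00215 and 0.000764), and Ugt2b1 by 0.93 ± 0.15 (adjusted p = 0.0009). Glul was lower at 500 than at 50 ppm by 0.84 ± 0.15 (adjusted p = 0.00364), as were Cyp1a2, Abcc9, Slc13a4 and Hspa4 by 0.52, 0.86, 0.84 and 0.83. These falls kept their direction under both scalings, and Cyp1a2 missed the threshold after division by the array median (-0.30, adjusted p = 0.0631). Slc37a4, in contrast, stood at -0.62 at 50 ppm and -0.61 at 500 ppm, a difference with a standard error of 0.11. Cnot11, of a deadenylase complex, was higher than at 50 ppm (1.08 ± 0.17, adjusted p = 0.000405) although its value against 0 ppm was 0.21. All 3 animals at 50 ppm came from runs 1 and 6, and 5 probesets passed with the run as a block.

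From 500 to 1000 ppm no probeset of 14273 passed in limma (0% higher and 0% lower), with 1125 at an unadjusted p under 0.05. After quantile normalization 11 were lower and after division by the array median 13, where the median of all probesets moved from 0.00 to -0.12 and -0.13. The differences were 0.19 ± 0.14 for the Cyp2b probeset, 0.18 ± 0.15 for Ugt2b1, 0.36 ± 0.11 for Ephx1 and 0.89 ± 0.21 for Ces2c (adjusted p = 0.145). A gene that misses the threshold is not thereby shown to be alike at both doses. Fmo1 stood at -1.48 and -1.47, a difference of 0.02 ± 0.23. Hspa4 was at -0.07 at 1000 ppm, and its difference from 500 ppm was 0.79 ± 0.16 (adjusted p = 0.0957).

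Each other day at 500 ppm has its own 3 controls and 3 treated animals. Of the 169 probesets of day 3, 45 were called in the same direction on day 1 (26.6% of the 169 and 38.5% of the 117 of that day), 57 on day 7 (33.7% and 12.3% of 465) and 57 on day 14 (33.7% and 26.1% of 218). The probesets higher on day 3 had a median log2 fold change of 0.65 there and 0.39, 0.33 and 0.35 on days 1, 7 and 14, and those lower had -0.53 on day 3 and -0.28, -0.20 and -0.21. They were chosen by their call on day 3, which favours larger values on that day. The Cyp2b probeset was at 2.80, 3.08, 3.28 and 3.07 on days 1, 3, 7 and 14. Ces2c was at 1.27, 2.65, 3.16 and 3.48, and Ephx1 at 1.06, 1.24, 1.52 and 1.73.

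The division genes had another course. Over cyclins and mitosis the median was 0.39 on day 1 and 0.58 on day 3, and turned negative on the later days (-0.18 on day 7, then -0.16). For replication it was 0.31, 0.27, 0.03 and 0.11, and for the proteasome 0.23, 0.19, 0.12 and 0.14. Each median was taken over the members that could be tested on that day. For cyclins and mitosis these were not the same genes throughout, as the treated arrays of days 7 and 14 listed fewer of them. Tubb5 went from 0.39 on day 1 and 0.73 on day 3 to -0.24 and -0.31 on days 7 and 14. The response on day 3 minus that on day 1 passed for no probeset of 13516 (0% in either direction), with 898 at an unadjusted p under 0.05. The response on day 3 minus that on day 14 passed for 11 of 13843 probesets in the higher direction (0.0795%) and 2 in the lower (0.0144%), none of which passed with the run as a block. On day 14 the treated animals were in runs 2 and 3 and the controls in runs 5 and 6, the reverse of day 3. Run and day therefore cannot be told apart in that difference. After quantile normalization the numbers were 20 and 1, with a shift of the median over all probesets from 0.00 to 0.11.

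**Figure D5:**
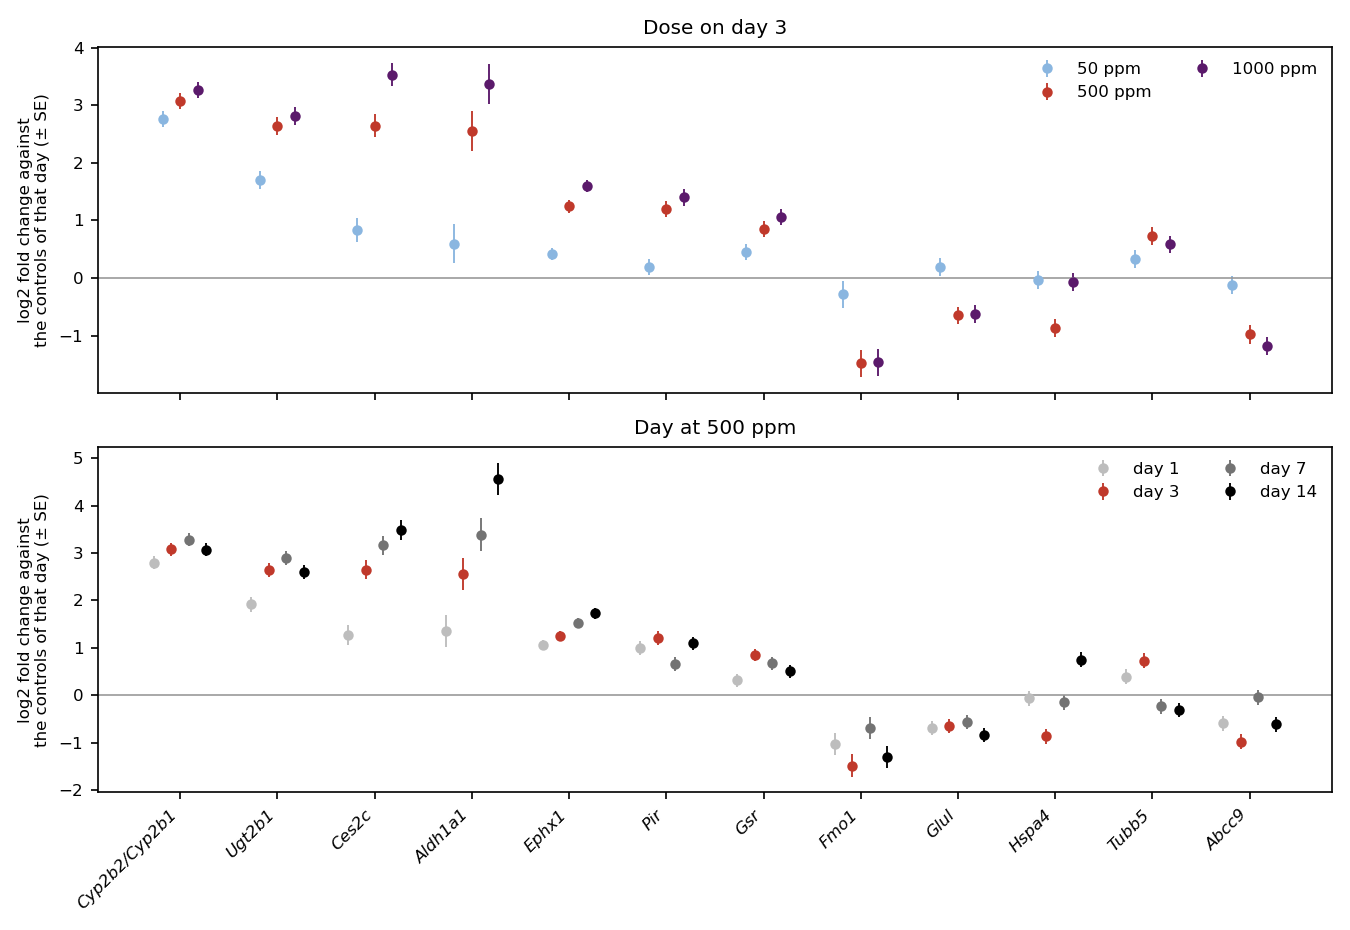
Log2 fold change (points, with standard errors, n = 3 animals a group) of the Cyp2b probeset and 11 genes against the controls of the same day, at 50, 500 and 1000 ppm on day 3 (top) and at 500 ppm on days 1, 3, 7 and 14 (bottom). The Cyp2b probeset is near its level at 500 ppm already at 50 ppm (2.76 against 3.08), Ces2c is not (0.83 against 2.65), and Tubb5 lies at 0.73 on day 3 and -0.31 on day 14.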

How the data were processed

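The authors extracted total RNA from the left lateral lobe, hybridized biotin-labelled RNA to Affymetrix arrays and condensed the probes of each probeset with MAS 5.0 (named in the submitters' processing notes, version not given in the sources used here). The deposited signals are intensity values on a linear scale, scaled by the authors to a common mean on each array. Absent signals were left missing, because the deposited table does not say what they stand for. A smaller deposited table of 776 probesets holds ratio values, the signal over the probeset's median across 48 arrays, as checked against the signals. It was not used further. Of 31099 probesets, 57 controls were left out, and 18073 reached the minimum signal of 90 on 3 or more arrays. A comparison needed 2 listed signals in each group.

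Group means of log2 signals (floor 0.01) were estimated probeset by probeset in R 4.3.3 over the signals present, and variances were moderated with limma 3.58.1. The code was tested against limma and on simulated data. Symbols came from GEO's platform annotation (20832 probesets with 1 symbol), and a gene was read from its brightest probeset. Of 34 other tested probesets of called genes, 31 had the same direction and 3 (Paip1, Klf6, Tpm1) the opposite one, none of them called, and 23 genes were called through another probeset alone. The list counts read only the brightest probeset and so leave these 23 out. Gpt2 (-0.54), Gc (-0.34), Txnrd1 (0.55) and Psme4 (0.91) are among them. Named are the 15 genes with the largest rise and fall, up to 5 of lowest p in each list or further comparison, the genes the study tabulated and the brightest one-sided probesets. Members, lists and rules were chosen with earlier results of these data known. Promoter windows came from RefSeq (GRCr8), which held 132 of 153 named genes. The number of arrays limits the precision.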

Additional observations from a re-analysis of the deposited data

Results flagged for a closer look

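The response of 4 named genes at 500 ppm differed between day 3 and day 14 by a test of the difference itself in limma. Hspa4 was lower on day 3 and higher on day 14 (-0.87 and 0.75), a difference of -1.61 ± 0.22 (adjusted p = 0.000246). Ccna2 stood at 1.55 and -2.56, a difference of 4.11 ± 0.75 (adjusted p = 0.0267). Tubb5 differed by 1.04 ± 0.22 (adjusted p = 0.0369) and Pcbp2, an RNA-binding protein, by 0.72 ± 0.14 (adjusted p = 0.0267). With the run as a block the differences were -1.25 for Hspa4, 3.82 for Ccna2, 1.16 for Tubb5 and 0.22 for Pcbp2, and none passed. The runs were reversed between the days. On day 3 the treated animals were in runs 5 and 6 and the controls in runs 2 and 3, and on day 14 the other way round. A difference between the runs would thus enter with opposite signs on the 2 days, and run and day cannot be told apart here.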

How the results depend on the processing

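With the run as a fixed block 4 probesets changed at 500 ppm on day 3, against 169, and with the fit on only the arrays compared 7. Arrays placed by their labels gave 37, leaving out the 7 arrays whose labels disagree 78, same-run controls of other days 18, controls of all 4 days 334 and a 1.5-fold limit 90. Leaving out 1 animal gave 65 to 111. No filter on low signals (166), listing on every array (190), quantile normalization (199), division by the array median (171) and the run as a random block (193) stayed within 1.5 times, and the cause of these movements was not tested. For 500 against 50 ppm the count of 110 became 5 with the run as a fixed block, 1 on only the arrays compared, 1 by labels, 29 without the 7 arrays, 892 after quantile normalization, 2063 after division by the median and 28 to 71 without 1 animal. For 1000 against 500 ppm the count of 0 became 1, 11 and 13 with the fixed block, quantile normalization and division by the median, and 0 to 6 without 1 animal, with 6 after leaving out replicate 2 at 1000 ppm. The response on day 3 minus day 1 had 2 calls with the fixed block and 0 to 0 without 1 animal. That minus day 14 (13) had 1 with the fixed block, 31 with the random block, 0 on only the arrays compared, 0 by labels, 5 without the 7 arrays, 21 after quantile normalization and 1 to 21 without 1 animal. Of 911 values of 51 named genes under 18 alternatives, 614 kept their call, 297 lost it and 0 changed direction. All 51 had passed in the main fit, and most alternatives reuse the same arrays, so a kept direction says little. The losses were uneven: 48 of the 51 lost their call with the run as a fixed block and 45 on only the arrays compared.

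Numbers in the titles gave 202 calls at 500 ppm on day 3 as a replicate block, 110 for 500 against 50 ppm and 27 for day 3 minus day 14. Deviations of same-numbered animals from their group means correlated at -0.05, -0.03 and -0.01. With 3 animals a group this cannot decide whether they share more than a number. Untreated animals of day 3 against those of other days gave 0 of 15025 probesets by limma (1096 before adjustment), a comparison added after seeing the data. Dim transcripts without a listed signal could not be tested.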
